A study of Mus musculus with 8 samples.

Results

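Interferon response and antigen presentation genes were followed in primary cultures of mouse cerebellar cells with and without added thyroid hormone (T3). The set holds 38 genes chosen by name, each represented by its brightest probe-set among those that carry that gene symbol alone. Of the 38, 36 had such a probe-set, out of 18193 genes on the array that did. Isg15 and Ifi44 had none and are named only. A filter on mean signal kept 34 of the 36 (10194 genes in all). Irf8 and Mx1 fell below it, so that they are given by their signals without a test.

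The cultures came from pooled cerebella of wild-type newborn mice, described as P4-P7 pups in the labels and as P1-P4 in the methods, and were kept for 48 h in serum-free medium before treatment. T3 at 0.1 µM was then given for 6, 16, 24 or 48 h. A control culture of the same cell batch was kept for the same time without added T3. Each of the 8 conditions was 1 culture on 1 Affymetrix Mouse Genome 430 2.0 array. The 4 T3 and untreated pairs are thus the only replicates, and no condition has its own spread. For the T3 effect, p-values measure the spread of the T3 difference between these pairs. For differences between time points they use the spread left within the pairs and do not measure the spread between batches of cells. The fits also draw each spread toward that of probe-sets of like signal (a moderated spread). Each time point had only 1 pair of cultures, so hours in culture cannot be told apart from other differences between pairs. A difference in cell batch could be among them, since separate or common batches for the pairs are not described. In such a mixed culture, fewer cells of a type and less RNA per cell cannot be told apart either.

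Median signals were 14.8 to 17.7 across the arrays, and the ratio of 3′ to 5′ control probe-sets was 1.61 to 2.95 for Gapdh and 1.69 to 2.55 for Actb. The untreated 24 h array stood apart by its glial markers, with Aqp4, the astrocyte water channel, at 1053.9 against 16.8 to 76.8 on the other 7 arrays. Values at 24 h rest on that array, and the fits over time points are also given without 24 h. Granule neuron markers were detected as the labels state, with Neurod1 between 266.3 and 2671.7. Defining lymphocyte markers were near the floor, with Cd3e at 1.7 to 3.5 and Ms4a1 at 1.7 to 7.9.

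Type I and type II interferons bind separate receptors that signal through JAK kinases to STAT proteins. Type I signalling acts largely through a complex holding Stat2 and Irf9 that binds interferon-stimulated response elements, whereas type II signalling acts largely through gamma-activated sites. The genes they switch on encode antiviral proteins, large GTPases that attack intracellular pathogens, and the machinery that cuts proteins into peptides and loads them on MHC class I molecules. In the brain this programme is best known from microglia, endothelial cells and astrocytes, and many neurons express class I genes at lower levels.

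Promoter windows were looked up for all 38 genes in RefSeq (GRCm38.p6), each window reaching from 250 bases before to 50 after the transcription start, and 30 genes had an entry. Parp14, Usp18, Mx2, Gbp6, Rtp4, Tap2, Dhx58 and Mx1 had none. The core of the interferon-stimulated response element, searched on both strands as GAAANNGAAA, was present for 14 of the 30 genes (46.7%) against 3.99% of all 27018 genes in the same table. A gamma-activated site, searched as TTCNNNGAA, was present for 8 of 30 (26.7%) against 9.55% of all. In Bst2 matches to both motifs overlap. The DR4 arrangement of a T3 response element, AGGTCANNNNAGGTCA, was in none of the 30 and in 4 of all 27018. A pattern this rare would hardly be met in any 30 genes, so its absence says nothing about looser or more distant elements. In a cerebellar cell line the authors report binding of a T3 receptor at a looser element downstream of the Gbp3 start, outside these windows. The counts given here are matches of letters in short windows and not evidence of binding. The following 60-base stretches lie upstream of a window's transcription start and are written 5′ to 3′ on the gene's own strand. Only genes with a match upstream of that start were printed. Gbp3, Gbp7, Ifit3 and Psmb8 had the higher signal with T3 in all 4 pairs. Irf7, Irf9 and Psmb9 did too but had no match to either interferon motif, and Usp18 had no entry. Cxcl10 had T3 differences of both signs beyond 2-fold, and Ifit1 and B2m are further examples of their roles. For Gbp3 and Ifit3 the window's start lies within the annotated gene, so the Gbp3 stretch reaches into the gene and the Ifit3 stretch lies inside it. Capitals mark the response element core on either strand, except for Psmb8, where they mark the gamma-activated site.
Gbp3 (chr3:142559980-142560039, plus strand): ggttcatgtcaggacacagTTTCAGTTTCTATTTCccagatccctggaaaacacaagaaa
Gbp7 (chr3:142530258-142530317, plus strand): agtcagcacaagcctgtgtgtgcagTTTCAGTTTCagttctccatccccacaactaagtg
Ifit1 (chr19:34640779-34640838, plus strand): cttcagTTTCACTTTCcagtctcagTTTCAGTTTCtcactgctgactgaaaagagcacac
Ifit3 (chr19:34583382-34583441, plus strand): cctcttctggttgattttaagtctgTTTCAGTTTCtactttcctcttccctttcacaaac
Cxcl10 (chr5:92349068-92349127, minus strand): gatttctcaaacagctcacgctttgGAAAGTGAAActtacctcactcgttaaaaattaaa
Psmb8 (chr17:34198072-34198131, plus strand): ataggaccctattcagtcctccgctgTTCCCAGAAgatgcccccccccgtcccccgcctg
B2m (chr2:122147523-122147582, plus strand): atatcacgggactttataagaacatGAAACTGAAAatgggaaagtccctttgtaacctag
In Gbp3 the capitals hold overlapping matches, the nearer of which starts 39 bases before the transcription start. Ifit1 carries a pair of separate cores. Ifit3 has a second core too, which starts 156 bases before the transcription start, before the printed stretch begins. The single Cxcl10 core lies farther out and starts 213 bases before the transcription start.

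The interferon response genes were high and low at the same time points. Across time points, with treatment in the same limma fit, 32 of the 34 tested genes differed (Benjamini-Hochberg adjusted p under 0.05), where 47.3% of all 18015 probe-sets tested did so. Stat2 (adjusted p = 0.096) and Cxcl10 (adjusted p = 0.092) did not pass. The fit sets time points against the spread within the pairs. If the pairs came from separate batches of cells, a difference between batches would pass it too. The mean of the 2 arrays was highest at 48 h in all 34 genes, a time course shown by 28.8% of all probe-sets. In 32 of 34 genes the mean was higher at 16 h than at 6 h, lower again at 24 h and higher again at 48 h, against 30.6% of all probe-sets. The exceptions were Mx2 and Xaf1, which were lower at 16 h than at 6 h. The lowest mean was at 24 h in 19 genes, at 6 h in 14 and at 16 h in Xaf1. Leaving out the 24 h arrays gave 33 genes that differed between time points, and leaving out any other pair gave 24 to 32. Over all probe-sets the same fits called 11380 without 24 h and 3150 to 7285 without another pair, against 8523 with all arrays.

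**Figure D1:**
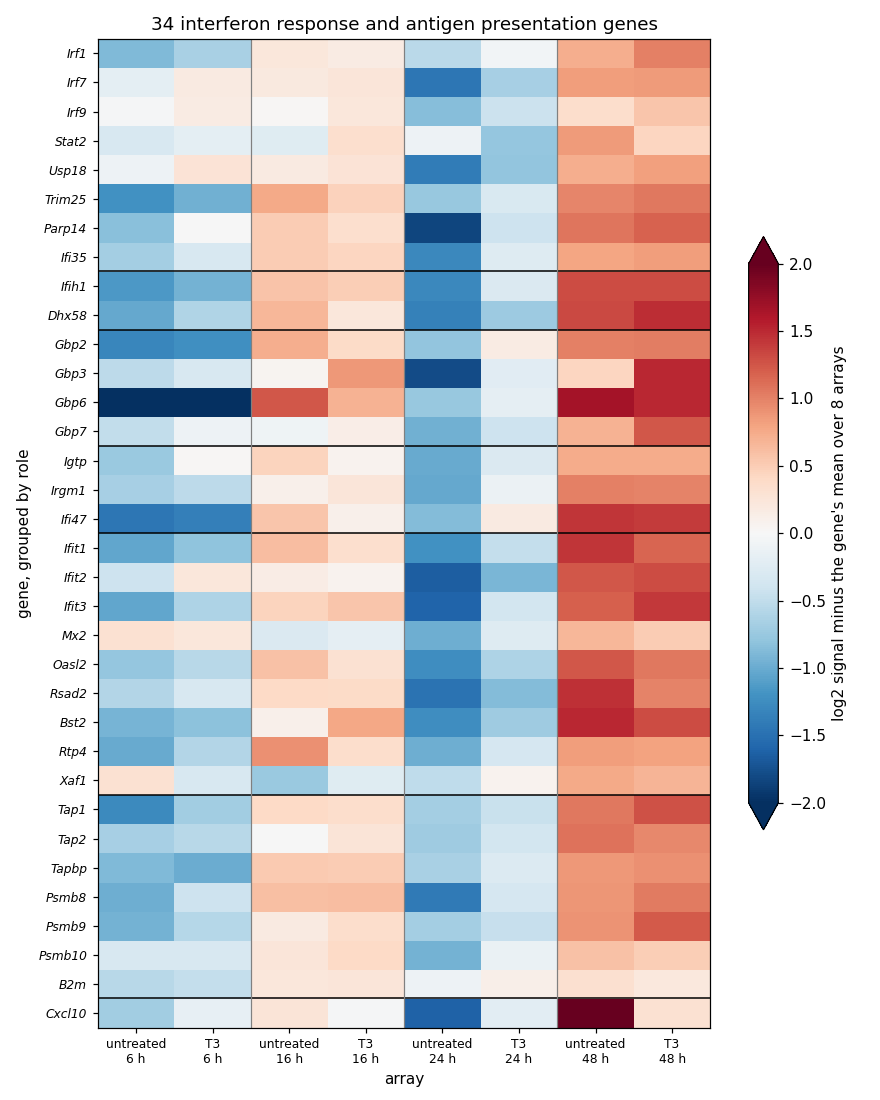
Log2 signal of the 34 tested genes (rows, grouped by role) on the 8 arrays (columns), each gene relative to its own mean, with colours limited to 2 log2 units either way. Both 48 h arrays are above the gene's mean in every row, and most rows are low at 6 h and on the untreated 24 h array.

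A straight trend on the log2 of the hours was not called for any gene of the set by its brightest probe-set with all 8 arrays. When arrays of the same time point were taken as a random block, 0 of the 34 genes passed in either direction (limma), against 1.75% of all probe-sets rising and 0.422% falling. A second B2m probe-set was called in the same fit, rising by 0.56 log2 units per doubling of time (adjusted p = 0.044). All 34 slopes of the brightest probe-sets were positive, with a median of 0.43 log2 units per doubling of time (all probe-sets, -0.03). Without the 24 h arrays, 28 of the genes rose with time, and without the 16 h arrays 4 did. All probe-sets that changed with time in either direction also numbered more in these fits, 4981 without 24 h and 1109 without 16 h against 392 with all arrays.

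Guanylate-binding proteins are interferon-induced GTPases that coat pathogen vacuoles, and they held the widest range between time points among the brightest probe-sets. Gbp6 had the largest range of the 34 genes, 3.66 log2 units between the 6 h and 48 h means (adjusted p = 0.00036). Its signal was 101.1 untreated versus 98.6 with T3 at 6 h, 988.2 versus 676.3 at 16 h, 247.2 versus 368.8 at 24 h, and 1327.6 versus 1192.7 at 48 h. The pairs did not overlap between time points. A second Gbp6 probe-set ran from 110.3 to 552.4 with its lowest values at 24 h instead of 6 h, and its range was 2.03 log2 units, so both the low point of Gbp6 and its place as the gene with the largest range depend on the probe-set. Gbp2 measured 160.5 versus 169.4 at 6 h, 658.5 versus 515.0 at 16 h, 229.8 versus 445.5 at 24 h, and 797.4 versus 800.8 at 48 h, untreated versus T3. That probe-set is of the type whose probes can also match related transcripts, and the second Gbp2 probe-set had the same order of time points.

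Immunity-related GTPases are small interferon-induced GTPases with a similar role in cell-autonomous defence. Ifi47 ranged over 2.82 log2 units (adjusted p = 0.0023). It was at 56.1 versus 58.9 at 6 h, 223.4 versus 163.7 at 16 h, 83.8 versus 172.7 at 24 h, and 410.3 versus 399.8 at 48 h, untreated versus T3. At 24 h the T3 array lay within the range of the 16 h pair and the untreated array well under it. Igtp (adjusted p = 0.018) and Irgm1 (adjusted p = 0.0039) were likewise higher at 16 h and 48 h than at 6 h and 24 h, with the lowest mean of Igtp at 24 h and that of Irgm1 at 6 h.

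All 9 tested antiviral effectors differed between time points. Ifit2, which binds viral RNA and limits its translation, ranged over 2.55 log2 units (adjusted p = 0.0011), with 149.6 versus 233.8 at 6 h, 223.2 versus 210.4 at 16 h, 64.0 versus 105.8 at 24 h, and 473.7 versus 493.6 at 48 h. Rsad2 (viperin), which makes a chain-terminating nucleotide, was at 450.8 versus 543.9, then 898.5 versus 890.0, then 245.3 versus 373.7, and finally 1869.9 versus 1353.8 at the same 4 time points (adjusted p = 0.0011). In both genes the 24 h pair was the lowest of all and the 48 h pair the highest. The other Rsad2 probe-sets had the same lowest and highest time points, but at 24 h their T3 differences were -0.01 and 0.11 log2 units against 0.61 for the brightest. Bst2 (tetherin), which holds budding virus at the cell surface, ran from 150.4 to 1004.4 (adjusted p = 0.00067). Ifit1, a sensor of viral RNA ends, had a range of 2.22 log2 units, Oasl2, a relative of the oligoadenylate synthetases, one of 2.09 and Rtp4 one of 1.62. Mx2, an antiviral dynamin-like GTPase, and Xaf1, a regulator of apoptosis, had the smallest ranges of the group, 1.20 and 1.21.

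Among regulators, Irf7, the transcription factor that amplifies type I interferon production, measured 236.7 versus 308.6 at 6 h, 309.8 versus 319.5 at 16 h, 99.8 versus 170.6 at 24 h, and 484.9 versus 491.7 at 48 h (adjusted p = 0.0021). Usp18, the protease that removes Isg15 and dampens receptor signalling, ran from 151.7 to 708.0 (adjusted p = 0.00097). Both were lowest at 24 h in each treatment. Trim25, the ubiquitin ligase that activates the RNA sensor RIG-I, had the widest range of the regulators after Parp14, at 2.10 against 2.25 log2 units. Irf1, an interferon-induced factor that drives class I genes, ranged over 1.63 and Irf9 over 1.09. Of the RNA sensors, Ifih1 (MDA5), which detects long double-stranded RNA, was at 136.4 versus 156.4, then 445.8 versus 421.7, then 123.4 versus 246.8, then 748.2 versus 744.9 from 6 to 48 h, and Dhx58, its relative without a signalling domain, ran from 16.4 to 117.2.

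All 7 antigen presentation genes differed between time points. B2m, the light chain of every class I molecule, had the smallest range of the 34 genes, 0.79 log2 units (adjusted p = 0.0018), with 1949.3 versus 2059.9 at 6 h, 3342.3 versus 3405.7 at 16 h, 2667.6 versus 3119.5 at 24 h, and 3593.4 versus 3324.2 at 48 h. A second B2m probe-set ranged over 1.73 log2 units with the same order of time points. Tap1 and Tap2, which form the transporter that brings peptides into the endoplasmic reticulum, ranged over 2.15 and 1.63, and Tapbp (tapasin), which bridges that transporter to class I molecules, over 1.83. Tap1, Tap2, Psmb8 and Psmb9 are neighbours within the MHC region on chromosome 17 (GRCm38.p6), between position 34182030, the start of Psmb9, and 34216321, the end of Tap2.

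Psmb8, Psmb9 and Psmb10 are the catalytic subunits that interferon exchanges into the proteasome in place of Psmb5, Psmb6 and Psmb7. Psmb8 was at 86.2 versus 127.2 at 6 h, 258.9 versus 260.4 at 16 h, 64.1 versus 134.6 at 24 h, and 311.8 versus 349.5 at 48 h, a range of 1.83 log2 units between means (adjusted p = 0.0027). Psmb9 ran from 84.2 to 379.1 (adjusted p = 0.00065) and Psmb10 from 77.6 to 224.6 (adjusted p = 0.020). The constitutive subunits stayed within 1163 to 1540 for Psmb5, 1277 to 1400 for Psmb6 and 1022 to 1444 for Psmb7, with adjusted p of 0.089, 0.89 and 0.47. The difference in time course between inducible and constitutive subunits was not itself tested.

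**Figure D2:**
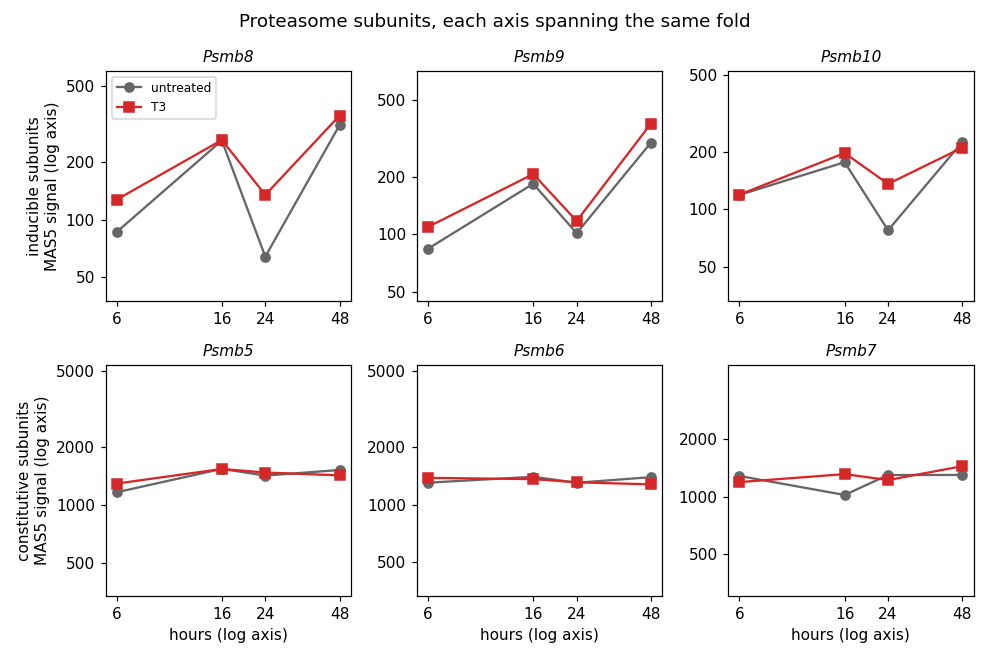
MAS5 signal (log axis) by hours (log axis) of the inducible proteasome subunits Psmb8, Psmb9 and Psmb10 (upper row) and the constitutive Psmb5, Psmb6 and Psmb7 (lower row), 1 array per point, every panel spanning the same fold. The upper panels are low at 6 and 24 h and high at 16 and 48 h, whereas the lower panels stay within 1022 to 1540.

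Other genes of the pathway gave a context for this course. Interferon transcripts were near the floor, with Ifnb1 at 4.0 to 14.1, Ifna4 at 0.4 to 1.8 and Ifng at 0.3 to 4.7, all below the filter. Among 9 tested receptors, kinases, STATs and regulators, 2 differed between time points (47.3% of all probe-sets). They were Ifnar2, a chain of the type I receptor (234.3 to 746.4, adjusted p = 0.0013), and Stat3 (169.4 to 402.1, adjusted p = 0.0047). The other receptor chains Ifnar1, Ifngr1 and Ifngr2 did not pass (adjusted p = 0.067, 0.11 and 0.11). Of 32 tested further interferon-stimulated genes, all 32 differed between time points (47.3% of all probe-sets) and 26 were highest at 48 h (28.8% of all).

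Of 15 further antigen presentation genes tested, 8 differed between time points, a share near the 47.3% of all probe-sets. The class I heavy chains H2-K1 (944.3 to 3099.5, adjusted p = 0.00034) and H2-D1 (1465.6 to 2885.5, adjusted p = 0.0051) were among them, each by a probe-set whose probes can match related heavy chains. H2-M3, a nonclassical heavy chain, ran from 51.3 to 284.9 (adjusted p = 0.0014). In class II, the chain genes H2-Aa, H2-Ab1 and H2-Eb1 stayed at or below 22.6 on every array and their activator Ciita at or below 8.1. Cd74, the class II invariant chain, rose with time by 1.01 log2 units per doubling (adjusted p = 0.044), from 35.7 versus 49.9 at 6 h to 389.3 versus 329.1 at 48 h. The order of its time points (6 h lowest, then 24 h, 16 h and 48 h) was that of H2-K1. Fcgrt, the neonatal Fc receptor (adjusted p = 0.0497), and the chemokine Ccl7 of the further interferon-stimulated genes (adjusted p = 0.047) also rose. No probe-set of the whole array passed the trend once either the 6 h pair or the 48 h pair was left out, so these calls rest on both ends of the time course. None passed either on the mean of each pair or without the variance trend.

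Marker lists of the cell types the culture could hold also moved between time points. Means were taken over the genes over the filter, and sums over every listed gene with a probe-set. Averaged over genes and centred, the 34 interferon response genes were at -0.74 versus -0.48 at 6 h, 0.32 versus 0.32 at 16 h, -1.05 versus -0.36 at 24 h, and 1.00 versus 0.99 at 48 h, untreated versus T3. Microglial markers (10 of 16 over the filter) had a mean of 0.22 versus 0.48, then -0.48 versus -0.21, then -1.53 versus -1.64, then 1.47 versus 1.68. Summed signals of the 15 microglial markers with a probe-set were 623.9 to 838.5 at 24 h and 4358.3 to 4629.2 at 48 h. They were lower at 16 h than at 6 h, unlike the interferon response genes. P2ry12, a defining marker of resting microglia, was at 0.9 to 8.2 on all arrays and so below the filter. The 10 microglial markers over the filter all differed between time points (47.3% of all probe-sets). All 10 were highest at 48 h (28.8% of all probe-sets). Meningeal and mural markers (10 of 10) had summed signals of 1911.9 to 2435.3 at 6 h, 9678.3 to 11080.8 at 16 h, 7219.1 to 10495.1 at 24 h and 16063.6 to 16822.4 at 48 h. Choroid plexus markers (all 6 listed, 5 of them over the filter) summed to 4221.1 to 4442.9 at 6 h, 6716.7 to 7093.7 at 16 h, 3962.7 to 4752.0 at 24 h and 6370.4 to 6767.7 at 48 h. Their sums were thus also higher at 16 and 48 h than at 6 and 24 h, and highest at 16 h. Endothelial markers (8 of 9 with a probe-set, 5 over the filter) summed to 279.1 to 283.0 at 24 h and 470.4 to 857.6 at the others. Granule neuron markers (8 of 8) went the other way, with sums of 6747.0 to 9571.3 at 6 and 24 h and 2181.1 to 4813.2 at 16 and 48 h. The part of these cell types in the time course of the interferon response genes was not tested.

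**Figure D3:**
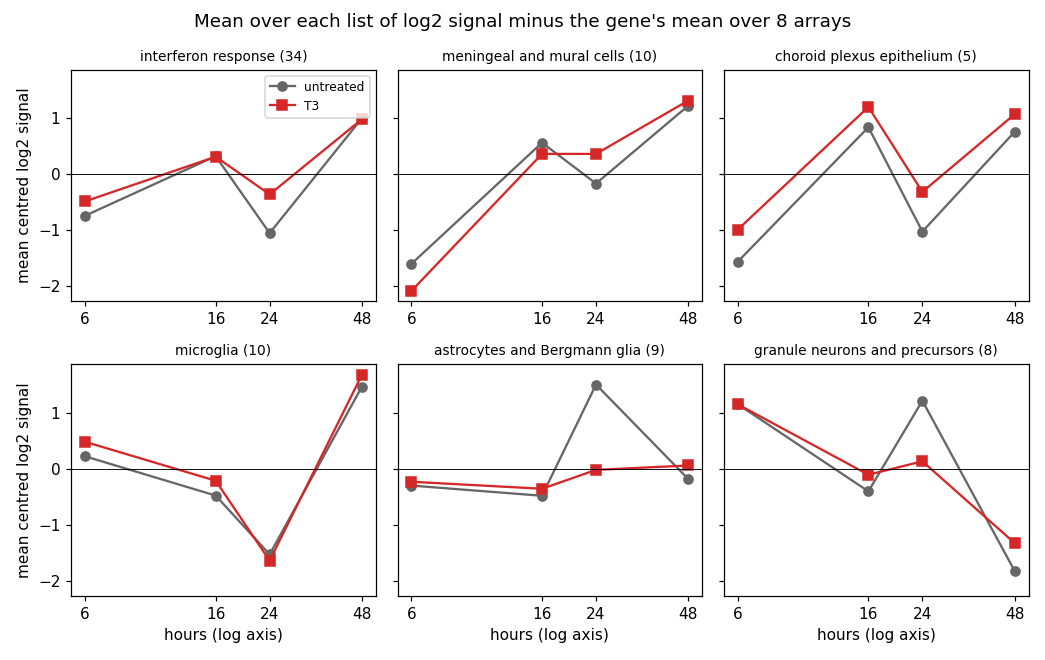
Mean over each list of log2 signal minus the gene's own mean over 8 arrays, by hours (log axis), 1 point per array, with the number of tested genes in brackets. The interferon response genes are low at 6 and 24 h and high at 16 and 48 h, as are choroid plexus markers, and granule neuron markers run opposite.

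T3 moved no gene of the set past the test over the 4 pairs. The limma fit with time as a block called 0 of the 34 genes higher and 0 lower at an adjusted p under 0.05, and it called 0 (0%) of all 18015 probe-sets in either direction, the smallest adjusted p over all of them being 0.15. At an unadjusted p under 0.05, 6 of the 34 passed, where 5.47% of all probe-sets did. They were Gbp3, Gbp7, Ifit3, Usp18, Psmb8 and Psmb9, and all 6 had the higher signal with T3. The median T3 difference was 0.22 log2 units over the 34 genes and 0.01 over all probe-sets. Without the 24 h pair the median of the 34 was 0.08. The T3 signal was higher in all 4 pairs for 8 of the 34 (8.25% of all probe-sets), the other two being Irf7 and Irf9, and no gene was lower in all 4. No T3 effect changed with the log2 of the hours, for 0 of 34 genes and 0 (0%) of all probe-sets (245 at an unadjusted p under 0.05).

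Gbp3 had the largest T3 difference in the set. Its signal was 276.0 untreated versus 319.1 with T3 at 6 h, 415.3 versus 728.2 at 16 h, 115.3 versus 339.4 at 24 h, and 533.9 versus 1138.0 at 48 h. Within each pair the T3 culture was the higher, by 0.21, 0.81, 1.56 and 1.09 log2 units in order of time, but the treatments overlapped across time points. The mean difference was 0.92, and the SD of the 4 differences was 0.56. Its moderated SE in the limma fit was 0.20, with an unadjusted p of 0.0022 and an adjusted p of 0.82. By that p it ranked 30 among 18015 probe-sets. Gbp3 lies on chromosome 3 (GRCm38.p6) from 142560016 to 142573213, beside Gbp7 (142530336 to 142550151) and Gbp2 (142620663 to 142638008).

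Gbp7, the neighbour of Gbp3, was at 187.7 versus 244.6 at 6 h, 247.0 versus 287.3 at 16 h, 135.1 versus 197.9 at 24 h, and 424.2 versus 626.3 at 48 h. Its T3 difference was 0.43 ± 0.11 (moderated SE, 4 pairs, unadjusted p = 0.0059, adjusted p = 0.82), with rank 76. A second Gbp7 probe-set gave 0.52, with the T3 signal higher in 3 of 4 pairs. Gbp2 (0.17 ± 0.20) and Gbp6 (-0.04 ± 0.17) had differences smaller than their errors, although a second Gbp2 probe-set gave 0.33 ± 0.22. Of the 4 family members Gbp3 and Gbp7 were the higher with T3 in all 4 pairs.

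**Figure D4:**
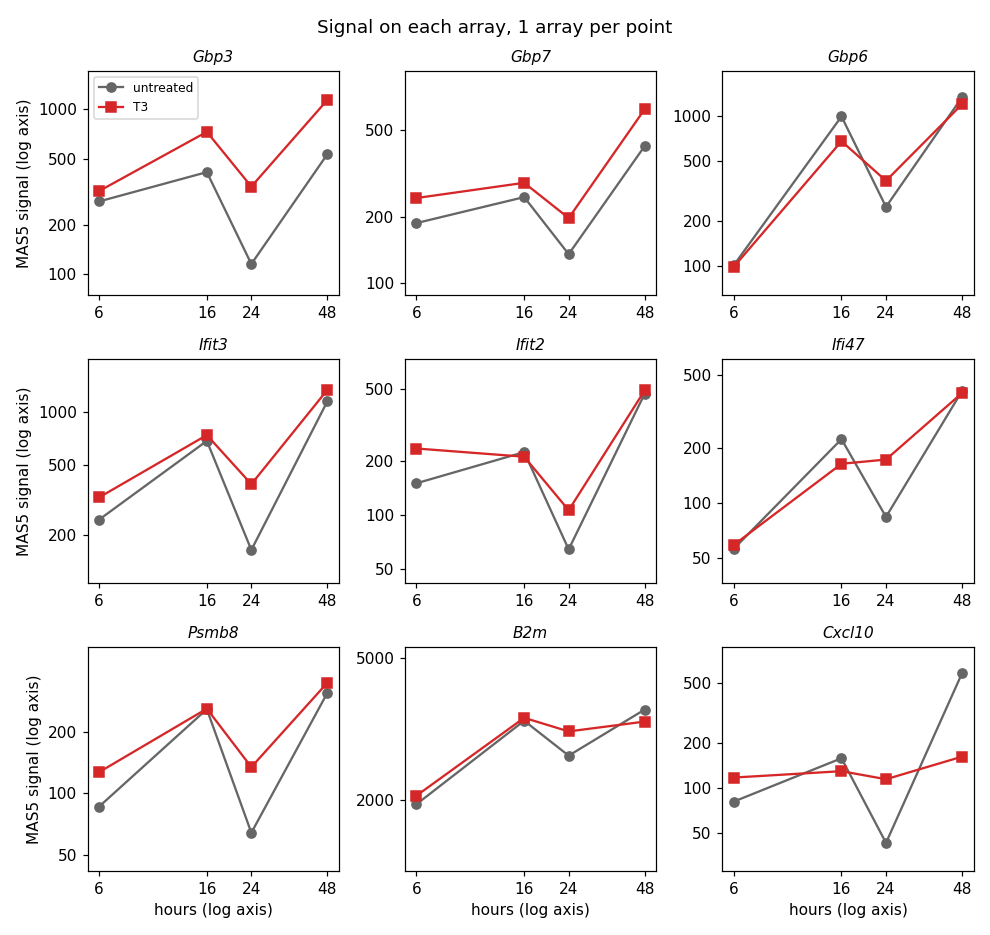
MAS5 signal (log axis) by hours (log axis) for 9 genes, 1 array per point. The T3 line of Gbp3 and Gbp7 lies above the untreated line at all 4 time points, and the lines of Cxcl10 cross, with 585.2 untreated and 162.2 with T3 at 48 h.

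At single time points 1 array was compared with 1 array, without a test. At 24 h, 33 of the 34 genes had the higher signal with T3 (54.3% of all probe-sets) with a median of 0.63 log2 units (all probe-sets, 0.05). Stat2 was the exception, at 34.3 without and 21.6 with T3. Beyond 2-fold higher were 7 of 34 (3.67% of all probe-sets) and beyond 2-fold lower 0 (5.16%). The 7 were Gbp3, Parp14, Cxcl10, Ifit3, Psmb8, Ifi47 and Ifi35, each by its brightest probe-set. By another probe-set Gbp2 was also beyond 2-fold higher (132.8 untreated and 303.4 with T3). By another probe-set Ifi35 was not (62.3 and 118.5). With 32 added to every signal before the log, 2 of the 34, Gbp3 and Ifit3, were beyond 2-fold at 24 h (1.29% of all probe-sets).

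Parp14, an ADP-ribosyltransferase that modulates STAT-dependent transcription, had 47.7 versus 85.0 at 6 h, 121.6 versus 107.9 at 16 h, 23.9 versus 64.0 at 24 h, and 178.5 versus 194.2 at 48 h. Ifit3, which stabilises Ifit1, had 244.1 versus 326.5, then 683.1 versus 737.3, then 164.1 versus 388.0, then 1148.4 versus 1333.4 at the same time points. Its mean difference was 0.50 ± 0.18 (moderated SE, 4 pairs, unadjusted p = 0.029, adjusted p = 0.82). Ifi35, an interferon-induced leucine zipper protein, had 482.9 versus 619.0, then 1102.0 versus 1037.0, then 316.0 versus 647.3, then 1338.0 versus 1377.6. In Parp14, Ifit3 and Ifi35 the untreated 24 h array was the lowest of the 8. Ifih1, at 123.4 and 246.8, was at the 2-fold limit and not beyond it. The marker sums of that pair also differed, with 6327.2 untreated and 3699.4 with T3 for astrocytes and Bergmann glia, 9287.5 and 6747.0 for granule neurons, 7219.1 and 10495.1 for meningeal and mural cells and 623.9 and 838.5 for microglia. For microglia the mean centred log2 signal of the 10 tested markers went the other way, at -1.53 untreated and -1.64 with T3. The part of these cell types in the 24 h differences was not tested.

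At 6 h, 30 of 34 genes had the higher signal with T3 (50.9% of all probe-sets), with a median of 0.23. None was beyond 2-fold in either direction (0.527% of all probe-sets higher and 0.328% lower). Parp14 and Igtp showed the widest differences, 0.83 and 0.77, and Xaf1 the most negative, -0.62. At 16 h, 16 of 34 were higher (49.7% of all), with a median of -0.02, and again none was beyond 2-fold (0.433% higher and 0.305% lower). At 48 h, 17 of 34 were higher (49.4% of all), with a median of 0.00. Gbp3 alone was beyond 2-fold higher (0.833% of all) and Cxcl10 alone beyond 2-fold lower (0.344% of all). Centring each array on its median signal took Gbp3 under 2-fold at 48 h, since that scaling moved the median of all probe-sets there by -0.15 log2 units, and it moved the median of the 34 genes at 48 h to -0.15.

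Cxcl10, the chemokine that attracts Cxcr3-bearing T cells, had the widest spread of T3 differences in the set. It was at 81.3 untreated versus 117.6 with T3 at 6 h, 158.2 versus 129.7 at 16 h, 43.1 versus 114.6 at 24 h, and 585.2 versus 162.2 at 48 h. The T3-treated cultures stayed between 114.6 and 162.2, whereas the untreated ones ran from 43.1 to 585.2. The differences were 0.53, -0.29, 1.41 and -1.85 log2 units, with an SD of 1.39. The mean over the pairs was -0.05 ± 0.45 (moderated SE). Among the further interferon-stimulated genes Oasl1, of the same family as Oasl2, was also beyond 2-fold in opposite directions, at 8.0 versus 28.7 at 24 h and 172.2 versus 71.4 at 48 h. Both Oasl1 signals at 24 h were low, under the 31.0 at which the filter on mean signal was set. In the interaction fit the change of the Cxcl10 difference with time had an adjusted p of 1.0.

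**Figure D5:**
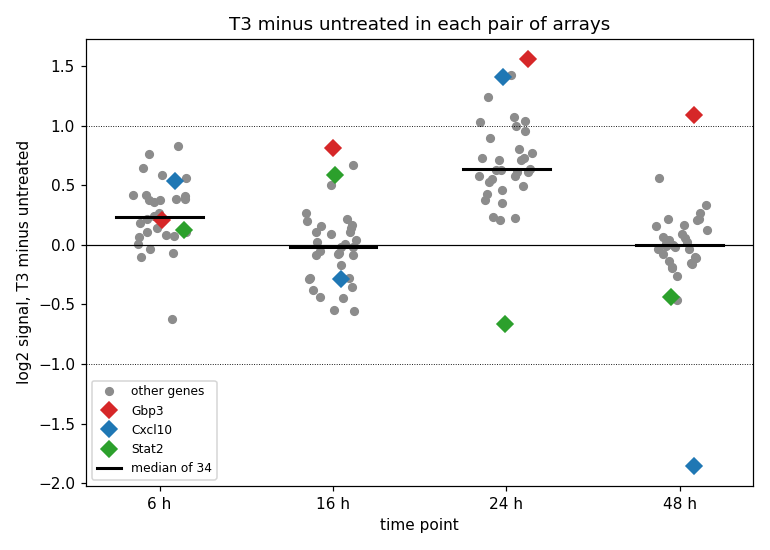
T3 minus untreated log2 signal of each of the 34 genes at each time point (points, 1 pair of arrays each), with the median as a bar and dotted lines at 2-fold. At 24 h 33 of 34 points are above 0 and at 16 and 48 h the medians are near 0, with Gbp3 highest at 16, 24 and 48 h and Cxcl10 lowest at 48 h.

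The same pair differences can be read by role. At 24 h the medians were 0.77 for guanylate-binding proteins (4 tested genes), 0.90 for immunity-related GTPases (3), 0.82 for RNA sensors (2), 0.63 for antiviral effectors (9), 0.55 for regulators (8) and 0.35 for antigen presentation genes (7). All 9 tested antiviral effectors and all 7 antigen presentation genes were higher with T3 at 24 h, and at 48 h 2 of 9 and 4 of 7 were. Psmb8 had a mean difference of 0.45 ± 0.19 and Psmb9 of 0.27 ± 0.11 (moderated SE, 4 pairs), with unadjusted p of 0.043 and 0.045. For Usp18 the difference was 0.29 ± 0.12 (unadjusted p = 0.045). The adjusted p was 0.82 for each of these 3 genes.

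Of the other interferon-stimulated genes, 28 of 32 tested were higher with T3 at 24 h (54.3% of all probe-sets) and 5 were beyond 2-fold higher (3.67% of all). The 5 were Ifitm1 (173.4 and 651.3), an entry inhibitor, Oasl1, whose signals at 24 h were low, the GTPases Iigp1 (77.2 and 174.5) and Irgm2 (97.6 and 207.2), and the chemokine Ccl5 (129.8 and 276.3). Among further antigen presentation genes 13 of 15 were higher at 24 h (54.3% of all), none of them beyond 2-fold, and Cd1d1, which presents lipids, was beyond 2-fold lower (298.7 and 61.6). The heavy chains H2-K1 and H2-D1 had differences of 0.19 and 0.32 log2 units at 24 h. None of the 3 lists of further pathway genes had a gene that passed the T3 fit.

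The 2 genes under the filter kept low signals throughout. Irf8, a transcription factor of myeloid cells, was at 33.8 versus 43.9 at 6 h, 16.5 versus 18.0 at 16 h, 12.7 versus 17.7 at 24 h, and 50.7 versus 68.5 at 48 h. The order of time points of this probe-set was that of the microglial markers, which were also lower at 16 h than at 6 h. A second Irf8 probe-set, also under the filter, was lowest at 16 h (mean log2 signal 2.84 against 3.17 at 24 h). At 6 h it was lower with T3, at 21.8 untreated versus 19.3. Mx1, the antiviral GTPase related to Mx2, was at 25.4 versus 72.9, then 26.1 versus 35.6, then 4.4 versus 12.6, then 40.9 versus 45.4. Irf8, by its brightest probe-set, and Mx1 had the higher signal with T3 in all 4 pairs, and Mx1 was beyond 2-fold at 6 h and at 24 h. With 32 added to each signal, the Mx1 differences were 0.87 log2 units at 6 h and 0.29 at 24 h, neither beyond 2-fold.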

How the data were processed

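The authors hybridized amplified RNA from 8 cultures to Affymetrix Mouse Genome 430 2.0 arrays, 1 array per condition, and deposited for every probe-set a linear signal intensity on each array, made with GCOS and MAS5 according to the submitters' processing notes and scaled so that the trimmed mean (2% off each end) was 100 on every array. Signals under 1 were set to 1 and taken as log2. After 64 control probe-sets were removed, those with a mean log2 signal at or above the 60th percentile (4.95, a signal of 31.0) were kept, 18015 of 45037. Genes were named through the platform annotation.

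Fits used limma 3.58.1 in R 4.3.3 with a variance trend, over all kept probe-sets, with Benjamini-Hochberg adjustment and a threshold of 0.05. The T3 effect was fitted with the time point as a block, since the methods state that the cultures of a pair came from the same cell batch. Differences between time points came from the same fit, against the spread left within the pairs. The SE values are the moderated ones of this fit and not those of the 4 differences alone. Arrays of the same time point deviated together, with correlations of 0.52 to 0.91. In the trend fit the time point was a random block (correlation 0.57). Signals were printed for genes beyond 2-fold at a time point, the 3 with the largest range, and 1 or more of each role. The fits were tested on simulated data. The genes, their roles and the marker and pathway lists were chosen with earlier results of these data known. The number of arrays limits the precision. Promoters were searched in Python 3.11.15. Detection calls were not used here.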

Additional observations from a re-analysis of the deposited data

Results flagged for a closer look

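Irf9, the DNA-binding subunit of the interferon-stimulated complex, had T3 differences of 0.19 to 0.21 log2 units at 6, 16 and 48 h and 0.43 at 24 h, so that 1 pair lay far from the other 3. Chance gives such a gap in about 1 of 20 groups, and it was the only one among the tested genes.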

How the results depend on the processing

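The counts of interferon response genes passing the T3 fit (0) and the T3 effect that changes with time (0) were the same under quantile normalization, median centring, 32 added to each signal, filtering at the 75th percentile or not at all, no variance trend and every left-out time point. The T3 fit gave 0 without the pairing too (no replicate block). Over all probe-sets, 0 to 2 passed the T3 fit when a time point was left out. The genes differing between time points numbered 24 to 33 over all alternatives. For all probe-sets that count was 5488 with the 75th percentile filter and 3150 to 11380 with a time point left out.

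The trend with log2 hours depended most on the choices. Genes of the set that rose numbered 6 with arrays taken as independent and 0 to 28 with a time point left out (28 without 24 h). All probe-sets changing numbered 392, but 55 with quantile normalization, 162 with 32 added, 8 without a filter, 0 without a variance trend, 3458 with arrays taken as independent, 0 on the mean of each pair and 0 to 4981 with a time point left out (4981 without 24 h, 1109 without 16 h). At single time points, the genes beyond 2-fold higher numbered 2 at 24 h with 32 added, 0 at 48 h with median centring, where the median became -0.15, and 1 at 6 h without a filter (Mx1). The causes of these shifts were not tested.

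Of 394 alternatives for single T3 effects, 374 had the same sign and 20 the opposite one. B2m became -0.0037 with median centring. For Gbp6 (-0.04), another probe-set gave 0.10 and the average of all its probe-sets 0.030, and for Rsad2 (0.10) another probe-set gave -0.15. With a time point left out the effects ranged from -0.0019 to 0.11 for B2m, -0.54 to 0.55 for Cxcl10, -0.090 to 0.35 for Gbp2, -0.25 to 0.13 for Gbp6, -0.14 to 0.36 for Ifi47, -0.10 to 0.24 for Ifit1, -0.039 to 0.25 for Mx2, -0.084 to 0.22 for Oasl2, -0.070 to 0.29 for Rsad2, -0.060 to 0.34 for Rtp4, -0.33 to 0.092 for Stat2, -0.026 to 0.13 for Tapbp and -0.066 to 0.33 for Xaf1. Single arrays limit every value at 1 time point.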
